A study of Mus musculus with 7 samples.

Results

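Neurospheres grown for 10 days from purified neural crest cells of the small bowel were compared with freshly sorted crest cells of the same tissue, across all genes. The comparison used 2 of the 7 libraries of the series, 1 per group, so it has no replicates: every difference below is between 2 libraries, and its interval reflects read counting alone. Both groups came from mice that carry Wnt1-Cre and the R26R-tdT reporter, in which Cre driven by the Wnt1 promoter switches on the red protein tdTomato in neural crest cells and in their descendants. Each library was pooled equally from 3 mice aged 1 month (2 female and 1 male), with RNA from about 50000 cells. The labels do not say whether the pools of the 2 groups were the same mice. In both groups the muscle layer of the small bowel, which holds the myenteric plexus, was digested with collagenase XI and dispase, and tdTomato-positive cells were collected by flow sorting. The fresh group (primary cells) went straight to RNA. The other group (method 1, M1) was cultured for 10 days with basic fibroblast growth factor and epidermal growth factor, both at 20 ng/mL, and heparin, and the labels record no further sort before RNA.

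The enteric nervous system is a network of neurons and glia in the gut wall that forms from neural crest cells which enter the gut before birth. Some cells of the postnatal plexus can divide in growth factor medium and form floating clusters called neurospheres, which can hold progenitors, neurons and glia together. In such crest cells Sox10 is a gene of both progenitors and glia, Ret is a receptor of the enteric lineage, and peptides such as VIP mark mature neuron classes.

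The fresh library held 57685653 reads assigned to genes and the M1 library 51885106, and the other 5 libraries lay between 61606456 and 65301500. Levels are given in CPM, the reads of a gene scaled so that each library sums to 1000000, and CPM values of different genes are not corrected for transcript length. A gene was measured when it reached 1 CPM in either library, which held for 15422 of 27179 genes. The log2 ratios are M1 over fresh cells after TMM scaling, which takes 0.46 off the log2 ratio of the plain CPM. A gene is called higher or lower when its scaled ratio was at least 4-fold and its 95% counting interval lay wholly beyond 2-fold. By this rule 1015 genes (6.58% of those measured) were higher in M1 neurospheres and 2521 (16.3%) were lower, 22.9% in either direction, and the median log2 ratio of all measured genes was -0.07. Scaled by library totals alone, the split was 1711 higher and 2116 lower and the median was 0.38. Scaled by totals without the pancreatic genes described next, it was 1426 higher and 2230 lower. The plot of all measured genes shows both libraries gene by gene.

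**Figure D1:**
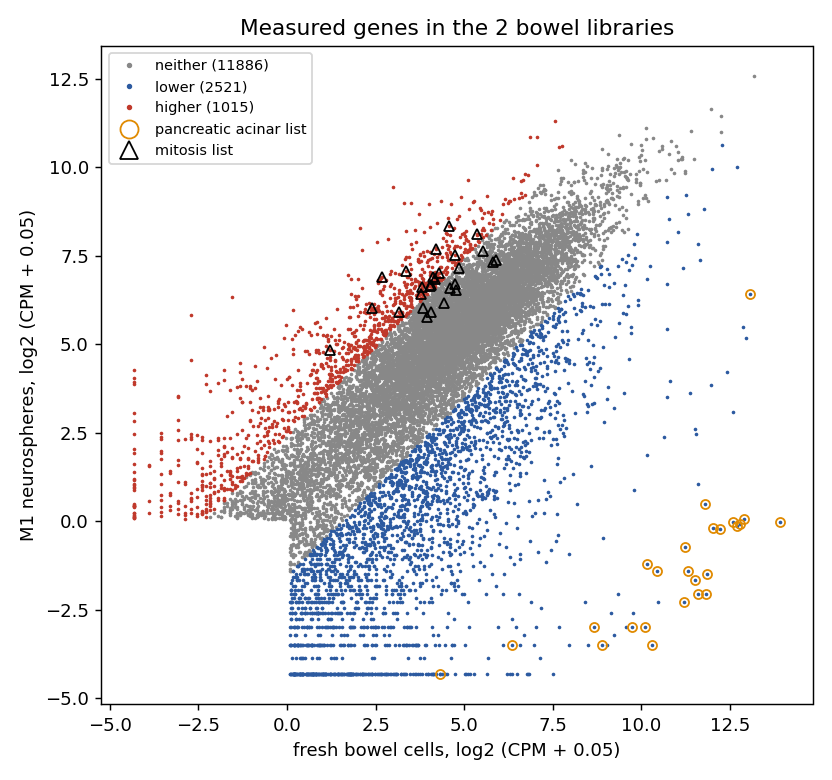
Each point is 1 of the 15422 measured genes, with its level in fresh bowel cells on the x axis and in M1 neurospheres on the y axis, both as log2 (CPM + 0.05). The 1015 genes called higher lie above the grey band and the 2521 called lower lie below it; the circled pancreatic genes sit at the lower right and the mitosis genes (triangles) in the upper part of the band or above it.

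Markers of several cell types that do not come from neural crest were mostly lower in M1 than in the fresh library. All 25 listed genes of the pancreatic acinar cell, the source of digestive enzymes, were lower, with a median log2 ratio of -13.22. Together they made up 9.13% of the reads of the fresh library and 0.00958% of those of M1. Most of the M1 sum of 95.8 CPM was 1 gene, Cela1, at 8642 CPM in fresh cells and 85.1 CPM in M1. The elastase gene Cela2a alone was at 15481 CPM in fresh cells and 0.944 CPM in M1. Of 12 smooth muscle markers 11 were lower, and their summed level was 27220 CPM in fresh cells and 258 CPM in M1. Acta2, the smooth muscle actin, was at 7415 CPM and 44.8 CPM, and the gut muscle actin Actg2 at 6159 CPM and 8.50 CPM. The exception was Hhip, an inhibitor of hedgehog ligands, at 0.347 CPM in fresh cells and 18.5 CPM in M1. Of the 16 macrophage markers 15 were lower, as were 11 of 12 endothelial, 10 of 12 fibroblast, 7 of 9 mesothelial and 9 of 10 measured gut epithelial markers. By library totals 14 macrophage, 7 fibroblast and 6 mesothelial markers were lower. Red cell genes also differed: the haemoglobin gene Hba-a1 was at 141 CPM in fresh cells and at 0.0193 CPM in M1, although its near-identical copy Hba-a2 makes the split between them uncertain. In bulk RNA, fewer cells of a type and less RNA per cell cannot be told apart.

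Markers of several of these cell types were still seen in M1, and 4 of the lists had lower sums in the bowel crest cells that had first been cultured as mixed spheroids and then sorted. The 16 macrophage markers summed to 5625 CPM in fresh cells and 1415 CPM in M1. Most of the M1 sum was Lyz2, a lysozyme gene, at 2843 CPM in fresh cells and 1213 CPM in M1. In tdTomato-positive cells sorted out of mixed spheroids the macrophage sum was 46.3 CPM, and in method 2 (M2) neurospheres grown for a further 10 days from such cells it was 38.2 CPM. The 9 mesothelial markers, genes of the outer lining of the gut, summed to 1602 CPM in fresh cells, 113 CPM in M1, 1.61 CPM in sorted spheroid cells and 0.459 CPM in M2. Msln, a mesothelial surface protein, was at 527 CPM in fresh cells, 10.9 CPM in M1 and at most 0.0459 CPM in the other 2. The 12 fibroblast markers summed to 5527 CPM in fresh cells, 2094 CPM in M1, 1326 CPM in sorted spheroid cells and 1692 CPM in M2. The smooth muscle sum, 258 CPM in M1, was 111 CPM and 84.3 CPM in those 2. No macrophage or mesothelial marker was at 0 reads in M1. Markers of other cells were thus lower in M1 where many crest genes were higher, and their part in the ratios below was not tested.

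**Figure D2:**
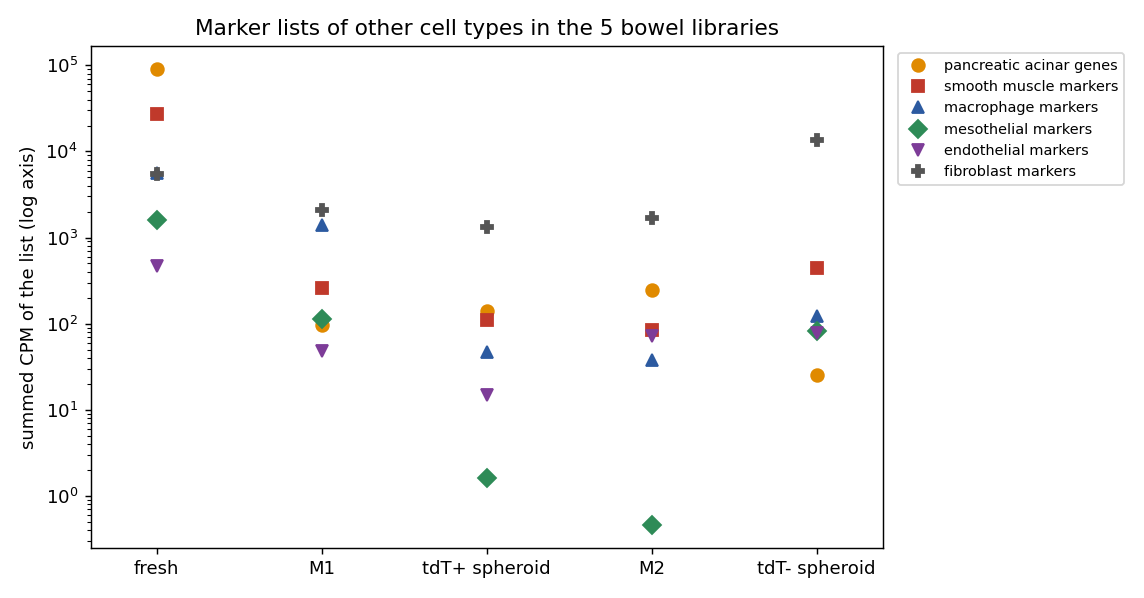
Summed CPM of 6 marker lists (log axis) in the 5 bowel libraries, 1 point per list and library. The fresh library is highest for the pancreatic (91325), smooth muscle (27220), mesothelial (1602) and macrophage (5625) lists, and among the cultured libraries sorted as tdTomato-positive M1 has the highest macrophage (1415), mesothelial (113), fibroblast (2094) and smooth muscle (258) sums.

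Many genes of cell division were higher in M1 neurospheres than in fresh cells, and none of the listed ones was lower. Of 27 mitosis genes 16 were called higher, with a median log2 ratio of 2.171, and of 22 DNA replication genes 10 were called higher (16 by library totals), with a median of 1.95. Mki67, the proliferation marker Ki-67, was at 18.3 CPM in fresh cells and 206 CPM in M1, a log2 ratio of 3.04 (interval 2.95 to 3.13). Top2a, the topoisomerase that untangles replicated chromosomes, was at 23.9 CPM and 326 CPM. Foxm1, a transcription factor of the G2 and M phases, was at 6.31 CPM and 121 CPM, the highest log2 ratio of the mitosis list at 3.79. All 27 mitosis genes lay more than 2-fold above the fresh level, the smallest log2 ratio being that of Hmgb2, a chromatin protein, at 1.04. Among the replication genes the licensing factor Cdc6 had the highest log2 ratio, 3.40, from 2.11 CPM to 31.1 CPM. Mcm2 and Mcm5, subunits of the replicative helicase, had log2 ratios of 2.38 and 2.07. Pcna, the sliding clamp of DNA polymerase, had the lowest, 0.89. Fresh cells were not free of these transcripts: Ccnb1, the mitotic cyclin B1, was at 46.2 CPM there and at 200 CPM in M1.

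The promoters of 4 mitosis genes called higher are printed because this group moved together and its promoters often share 2 short motifs. Each is the 250 bases before the gene's start in RefSeq on GRCm38.p6: Cdk1, the mitotic kinase, at chr10:69352913-69353162 on the minus strand, Ube2c, which tags mitotic proteins for destruction, at chr2:164769679-164769928 on the plus strand, Kif11, a spindle motor, at chr19:37376132-37376381 on the plus strand and Top2a at chr11:99024190-99024439 on the minus strand. Capitals mark CCAAT and TTTGAA (the core of the cell cycle element called CHR) on either strand, so the reverse complements ATTGG and TTCAAA are also in capitals, and matches may overlap.
Cdk1: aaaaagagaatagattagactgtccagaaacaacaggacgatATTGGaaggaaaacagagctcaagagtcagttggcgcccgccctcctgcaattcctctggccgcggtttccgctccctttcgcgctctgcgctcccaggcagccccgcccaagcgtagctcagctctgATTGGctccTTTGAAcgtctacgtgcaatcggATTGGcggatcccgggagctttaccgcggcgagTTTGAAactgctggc
Ube2c: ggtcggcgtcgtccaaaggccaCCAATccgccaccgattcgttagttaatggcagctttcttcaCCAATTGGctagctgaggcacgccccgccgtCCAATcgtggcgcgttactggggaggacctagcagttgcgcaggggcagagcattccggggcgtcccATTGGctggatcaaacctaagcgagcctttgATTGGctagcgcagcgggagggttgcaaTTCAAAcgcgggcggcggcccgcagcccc
Kif11: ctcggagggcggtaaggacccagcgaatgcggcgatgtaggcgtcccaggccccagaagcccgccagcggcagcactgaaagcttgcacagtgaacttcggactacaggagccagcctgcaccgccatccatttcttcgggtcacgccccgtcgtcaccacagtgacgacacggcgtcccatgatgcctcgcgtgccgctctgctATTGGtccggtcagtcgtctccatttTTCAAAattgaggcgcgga
Top2a: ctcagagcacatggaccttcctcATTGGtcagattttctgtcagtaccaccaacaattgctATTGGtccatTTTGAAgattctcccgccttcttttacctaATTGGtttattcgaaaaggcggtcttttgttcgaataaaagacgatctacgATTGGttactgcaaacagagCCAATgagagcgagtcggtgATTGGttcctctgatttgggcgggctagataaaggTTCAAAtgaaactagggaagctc
RefSeq promoters were found for 22 of the 27 mitosis genes. CCAAT was present in 19 of the 22 (86.4%) and in 34.5% of all 27025 promoters of the same length. TTTGAA was present in 9 of the 22 (40.9%) and in 16.3% of all. Of 17 replication genes with a promoter, 3 held the E2F motif TTTGGCGC and 2 held TTTCCCGC, which 0.437% and 0.929% of all promoters held. These matches describe the letters of the windows and are not evidence that a factor bound there.

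Many genes of the crest and enteric progenitor list were also higher in the neurospheres. Sox10 among them is on the glial list too, and progenitors and glia were not told apart. Of 20 measured genes on the crest and enteric progenitor list, 10 were higher and 1 was lower, and the median log2 ratio was 2.07. Sox10, the transcription factor that keeps crest cells as progenitors or glia, was at 98.05 CPM in fresh cells and 786 CPM in M1, a log2 ratio of 2.54 (interval 2.50 to 2.58). The gene lies on chromosome 15 (79154913 to 79164490, GRCm38.p6). Erbb3, the neuregulin receptor of crest and glial cells, was at 24.9 CPM and 502 CPM. Ngfr, the p75 receptor often used to sort enteric crest cells, was at 5.88 CPM and 114 CPM. The stem cell genes Nes, which encodes nestin, and Sox2 had log2 ratios of 3.03 and 3.28. Ret, the receptor for GDNF in the enteric lineage, was at 55.7 CPM and 374 CPM, a log2 ratio of 2.29. Its co-receptor Gfra1, at 165 CPM and 283 CPM, and the endothelin receptor Ednrb, at 234 CPM and 232 CPM, were in neither group. The one lower member was Twist1, a factor of crest mesenchyme, at 6.90 CPM and 1.04 CPM.

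The other bowel libraries give these levels side by side. Sox10 was at 900 CPM in tdTomato-positive cells from mixed spheroids, 661 CPM in M2 and 5.23 CPM in the tdTomato-negative cells of the same spheroids. Ret did not follow it: it was at 374 CPM in M1 and 274 CPM in M2 but 22.3 CPM in the sorted spheroid cells. The early crest factors Pax3 and Tfap2b stayed at or below 0.116 CPM in fresh cells and M1, so neither library reached the 1 CPM minimum for them.

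**Figure D3:**
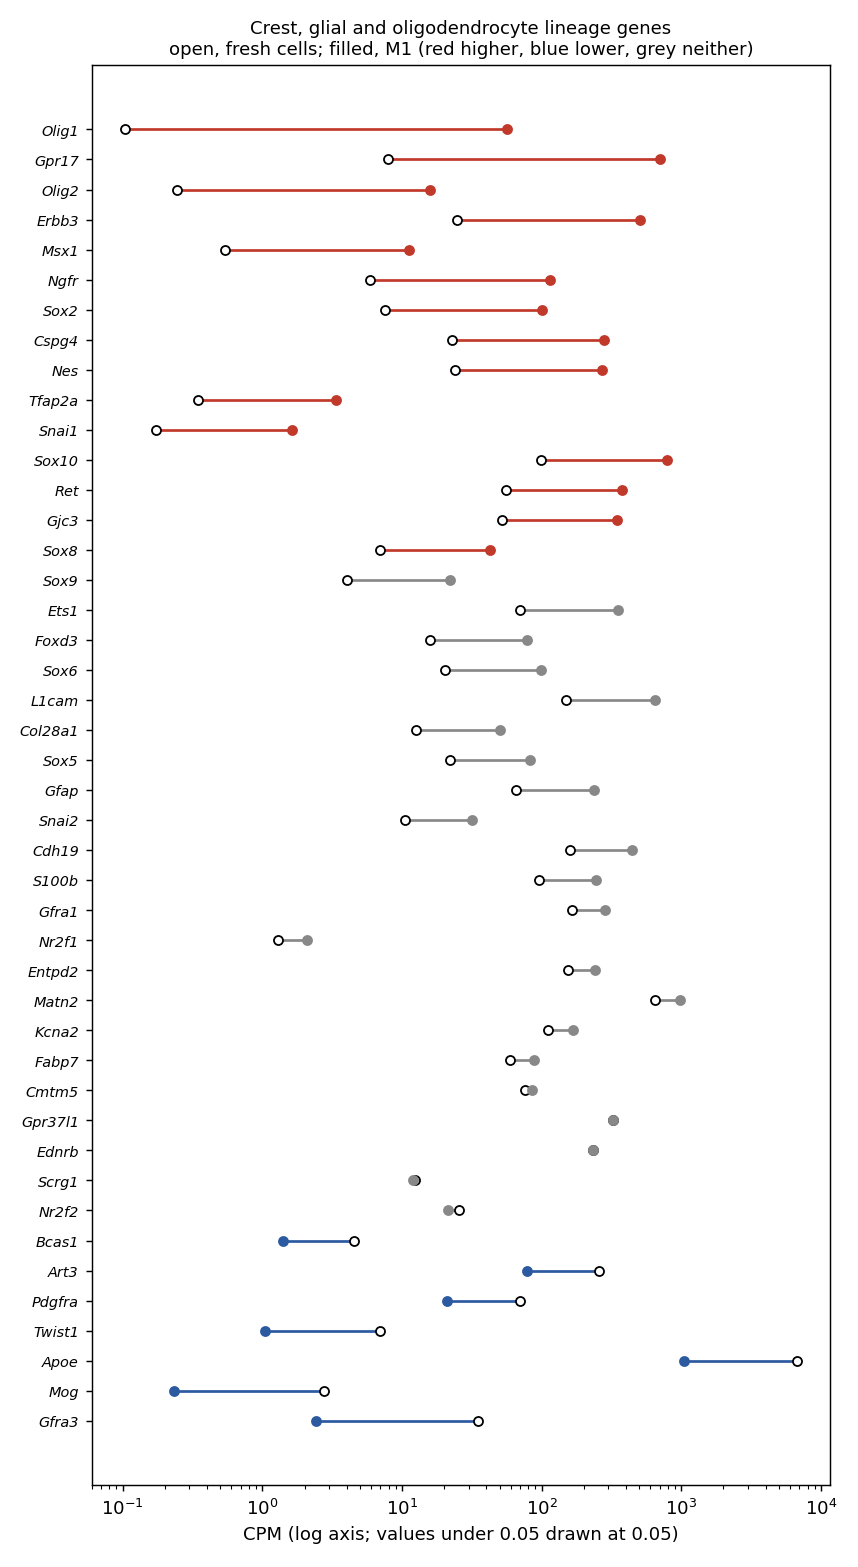
CPM on a log axis of measured crest, glial and oligodendrocyte lineage genes in fresh cells (open) and in M1 neurospheres (filled), sorted by log2 ratio. Olig1 (0.104 to 56.6 CPM) and Gpr17 (7.89 to 698 CPM) span the most on the higher side, Gfra3 (34.7 to 2.43 CPM) lies at the lower end, and glial genes such as Gpr37l1 and Ednrb of the crest list have overlapping points.

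Several general markers of neurons were near the same level, while neurofilaments, most peptides and most transmitter genes were lower. Of 23 pan-neuronal genes 11 were lower, 1 was higher and 11 were in neither group, and the median log2 ratio was -1.92. The RNA-binding protein gene Elavl4, which encodes HuD, was at 162 CPM in fresh cells and 207 CPM in M1, a log2 ratio of -0.11 (interval -0.15 to -0.07). Tubb3, the neuronal tubulin, was at 223 CPM and 208 CPM, and Dcx, a microtubule protein of young neurons, at 4.13 CPM and 4.38 CPM. Prph, the peripheral neuron filament peripherin, was at 328 CPM and 12.1 CPM, a log2 ratio of -5.22. The light neurofilament Nefl was at 44.0 CPM and 1.79 CPM, and Rbfox3, the mature neuron marker NeuN, at 8.36 CPM and 0.463 CPM. Snap25, needed for vesicle fusion, was at 417 CPM and 53.1 CPM. The one higher member was Map2, a protein of dendrites, at 20.7 CPM and 178 CPM.

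The neuropeptides had the largest share of lower members among the 5 lists of neuronal function, with 12 of 15 lower, none higher and a median log2 ratio of -3.49. Gal, the peptide galanin, was at 2079 CPM in fresh cells and 289 CPM in M1, a log2 ratio of -3.31. Vip, the relaxing peptide of inhibitory motor neurons, was at 456 CPM and 20.2 CPM, a log2 ratio of -4.95 (interval -5.05 to -4.87). Tac1, which encodes substance P of excitatory neurons, was at 327 CPM and 42.4 CPM. Peptides that mark sensory and interneuron classes fell close to the detection floor, which at 3 reads is 0.0578 CPM in M1. Vip lies on chromosome 10 (5639193 to 5647617) and Calcb on chromosome 7 (114716555 to 114723368). Calcb, the beta form of CGRP, was at 143 CPM and 0.135 CPM, Sst (somatostatin) at 35.4 CPM and 0.0771 CPM, and Nmu (neuromedin U) at 19.7 CPM and 0.0385 CPM, the last being 2 reads. The 3 peptides in neither group were Penk at 287 CPM and 155 CPM, Npy at 40.0 CPM and 28.4 CPM, and Cck at 1.80 CPM and 5.18 CPM.

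The promoter of Sst is known for a cyclic AMP response element, TGACGTCA, and is shown for that element, which starts 48 bases before the RefSeq start (chr16:23890874-23890903, minus strand, 30 bases, the element in capitals).
Sst: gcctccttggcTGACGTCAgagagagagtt
The element was present in 2 of the 12 peptide genes with a RefSeq promoter, Sst and Cartpt, and in 1.62% of all promoters. Cartpt, the peptide CART, was at 200 CPM in fresh cells and 22.0 CPM in M1.

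Transmitter genes followed the peptides: 9 of 12 measured were lower, 1 was higher and the median log2 ratio was -4.11. Chat, the enzyme that makes acetylcholine, was at 23.2 CPM in fresh cells and 0.964 CPM in M1, and the vesicular acetylcholine transporter Slc18a3 at 118 CPM and 9.81 CPM. Dbh, which makes noradrenaline, was at 22.7 CPM and 0.597 CPM. Nos1, the enzyme of nitrergic neurons, was in neither group at 9.48 CPM and 6.71 CPM. So was Slc18a2, the vesicular monoamine transporter, at 116 CPM and 205 CPM. The noradrenaline transporter Slc6a2 was higher, at 0.0347 CPM (2 reads) and 5.17 CPM, and was at 85.1 CPM in tdTomato-negative spheroid cells. Of 20 channel and receptor genes 6 were lower (4 by library totals) and 1 higher (2 by library totals). The lower ones included the purine receptor P2rx2, at 80.3 CPM and 5.74 CPM, and the nicotinic subunit Chrna3, at 156 CPM and 50.7 CPM, which was in neither group by library totals. The calcium channel Cacna1b was the higher one, at 1.07 CPM and 29.1 CPM, and it too was higher in tdTomato-negative cells, at 99.2 CPM. Of 21 vesicle release genes 7 were lower and 12 lay within 2-fold, among them Sv2a at 27.7 CPM and 31.4 CPM.

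**Figure D4:**
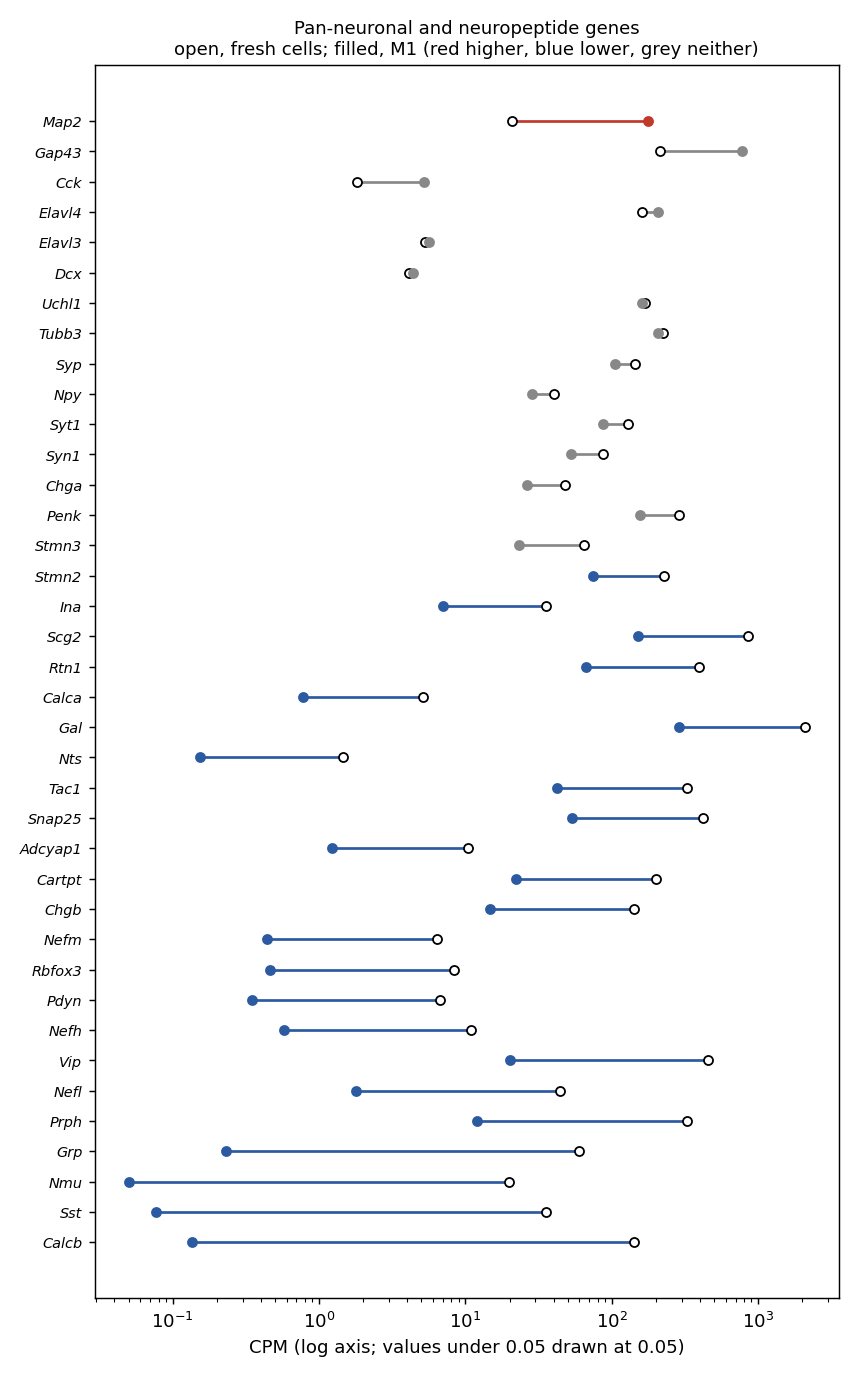
CPM on a log axis of the 23 pan-neuronal and 15 neuropeptide genes in fresh cells (open) and M1 neurospheres (filled), sorted by log2 ratio. Elavl3, Elavl4, Dcx, Uchl1 and Tubb3 have nearly coinciding points, while Vip, Prph, Grp, Nmu, Sst and Calcb have M1 points far to the left.

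Neurogenic transcription factors moved both ways. Of 20 measured factors 4 were higher, 5 were lower and the median log2 ratio was -0.07. Both the sign and the balance depended on the scaling: 7 were higher and 3 lower by library totals and by totals without the pancreatic genes. Insm1 and Sox11, both found in newly formed neurons, had log2 ratios of 3.52 and 3.27. Neurod4 had no reads in fresh cells and 55 reads (1.06 CPM) in M1, at least 14.8-fold higher. Tlx2, a homeobox factor of enteric neurons, was at 27.0 CPM in fresh cells and 0.867 CPM in M1, and was at 15.3 CPM in M2 neurospheres. Meis2 and Phox2a were also lower, with log2 ratios of -2.80 and -3.83.

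Some contrasts among neuronal and progenitor genes can be given without any scaling, as the ratio of 2 genes' reads within a library. For Elavl4 reads over Prph reads the log2 change from fresh cells to M1 was 5.12. Sox10 over Elavl4 was 0.605 in fresh cells and 3.80 in M1, a log2 change of 2.65, and Mki67 over Sox10 was 0.186 and 0.262, a log2 change of 0.49. The pairs were chosen after the values were seen.

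Glial genes lay on both sides of no difference. Of 18 enteric and peripheral glial genes 2 were higher, 3 were lower, 8 lay within 2-fold and the median log2 ratio was 0.13. Over all measured genes 6.58% were higher and 16.3% were lower, and the glial share of lower genes was near the latter. The calcium-binding protein S100b was at 95.7 CPM in fresh cells and 244 CPM in M1, and the filament Gfap at 65.6 CPM and 236 CPM, both in neither group. Gfap was at 1109 CPM in the sorted spheroid cells. The lower genes were Apoe, a lipid carrier also made by macrophages, at 6673 CPM and 1041 CPM, Gfra3 at 34.7 CPM and 2.43 CPM, and Art3 at 256 CPM and 78.5 CPM, which was in neither group by library totals. Gjc3, a gap junction protein of glia, was higher at 52.1 CPM and 345 CPM. Of 14 measured myelin genes 2 were higher (4 by library totals) and 5 lower. Mbp, a structural protein of myelin, was at 287 CPM and 58.4 CPM.

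Genes best known from oligodendrocyte precursors, the myelin-forming lineage of the brain, included some of the highest ratios. Olig1, a transcription factor of that lineage, was at 0.104 CPM in fresh cells (6 reads) and 56.6 CPM in M1 (2939 reads), a log2 ratio of 8.25 (interval 7.51 to 10.08). Olig1 (91269769 to 91271939) and Olig2 (91225550 to 91228677) are neighbours on chromosome 16. Olig2 was at 0.243 CPM and 15.8 CPM. Gpr17, a receptor of precursors on the way to myelination, was at 7.89 CPM and 698 CPM, a log2 ratio of 6.002. Cspg4, the proteoglycan NG2, was at 22.6 CPM and 278 CPM. Of 8 measured members 4 were higher and 3 lower, but 5 were higher and 1 lower by library totals and by totals without the pancreatic genes. The lower ones were Mog and Bcas1, genes of myelinating oligodendrocytes, and Pdgfra, which is also a fibroblast marker; under those 2 scalings Bcas1 and Pdgfra were in neither group. Olig1 was at 62.7 CPM in the sorted spheroid cells and 132 CPM in M2, and at 0.170 CPM in tdTomato-negative cells.

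The medium contained FGF and EGF, and feedback genes of their receptors were examined. Of 20 measured genes 7 were higher and 1 lower, with a median log2 ratio of 0.87. The transcription factor genes Etv4 and Etv5, which act downstream of FGF receptors, were at 0.243 CPM and 19.2 CPM, and at 32.2 CPM and 266 CPM, in fresh cells and M1. The feedback inhibitors Spry4 and Dusp4 had log2 ratios of 3.12 and 3.39. Dusp6, an ERK phosphatase, was in neither group at 166 CPM and 388 CPM. Of the receptors, Fgfr1 was at 54.4 CPM and 245 CPM (neither, but higher by library totals), Fgfr2 was lower at 105 CPM and 7.56 CPM, and Egfr was at 15.7 CPM and 19.8 CPM.

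Notch signalling lets neighbouring progenitors restrain each other from becoming neurons. Of 18 measured Notch pathway genes 5 were higher and 2 lower (1 by library totals), where 6.58% of all measured genes were higher and 16.3% were lower. The receptors Notch1, at 15.4 CPM in fresh cells and 200 CPM in M1, and Notch2, at 14.0 CPM and 117 CPM, were higher. So were the ligands Jag1 and Dll3 and the target Heyl, with log2 ratios of 2.56, 3.004 and 2.30. The target Hes1 was at 52.6 CPM and 53.3 CPM. The endothelial ligand Dll4 was lower, at 5.11 CPM and 0.0771 CPM. Of 14 measured neurotrophic genes 2 were higher and 3 lower, to be read beside the same shares of all genes, and the median log2 ratio was -1.14. The higher ones were Gdnf and Artn, ligands of the Ret system, at 1.06 CPM and 14.3 CPM and at 3.40 CPM and 66.6 CPM. Nrtn, another Ret ligand, was lower at 39.2 CPM and 4.80 CPM. Edn3, the endothelin that keeps enteric progenitors undifferentiated, was also lower, at 17.0 CPM and 0.463 CPM.

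Of the cholesterol synthesis genes 10 of 21 were higher and none lower, with a median log2 ratio of 1.74. Dhcr7, the last enzyme of the pathway, was at 17.6 CPM in fresh cells and 187 CPM in M1, the largest log2 ratio of the list at 2.95. Scd2, a fatty acid desaturase outside the list, was among the 10 genes with the most M1 reads, at 116 CPM and 1852 CPM. The sterol element TCACNCCAC was found in 1 of 13 promoters of the list, that of Hmgcs1, and in 1.04% of all promoters. Fewer matrix genes were called. Of 26 interstitial matrix genes 2 were higher (4 by library totals), Tnc (tenascin C) at 134 CPM and 1862 CPM and Bgn (biglycan) at 92.8 CPM and 566 CPM. Of 21 basal lamina and integrin genes 3 were higher (5 by library totals): Itgav, an integrin subunit, at 38.4 CPM and 518 CPM, Itga6 at 48.9 CPM and 270 CPM, and the laminin receptor Dag1 at 215 CPM and 1554 CPM. Neither matrix list had a lower member, where 6.58% of all measured genes were higher and 16.3% were lower.

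Immediate early genes and MHC genes were mostly lower in M1. Of 17 immediate early genes, which respond within minutes to a stimulus, 11 were lower (9 by library totals) and 2 higher. Their median log2 ratio was -2.61. Fos was at 3221 CPM in fresh cells and 167 CPM in M1, and Junb at 840 CPM and 45.1 CPM. The higher ones were Myc, a growth regulator, at 19.3 CPM and 113 CPM, and Egr3 at 0.0693 CPM and 1.39 CPM. Of 12 heat shock genes 3 were lower and 7 lay within 2-fold, where 16.3% of all measured genes were lower. The lower ones included Hspa1a and Hspa1b, whose reads cannot be assigned to 1 copy with certainty. Of 13 MHC genes 12 were lower (10 by library totals). The class II genes H2-Ab1 and Cd74, made by antigen-presenting cells, were at 3989 CPM and 14.4 CPM and at 5501 CPM and 18.4 CPM. The class I gene H2-K1 was at 1694 CPM and 236 CPM. Of 16 interferon response genes 5 were lower (3 by library totals) and none higher, beside 16.3% lower and 6.58% higher over all measured genes. Among the lower ones was Oas1a at 33.0 CPM and 3.30 CPM. The macrophage list moved with the class II genes, at summed levels of 5625 CPM and 1415 CPM, and its part in their difference was not tested.

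**Figure D5:**
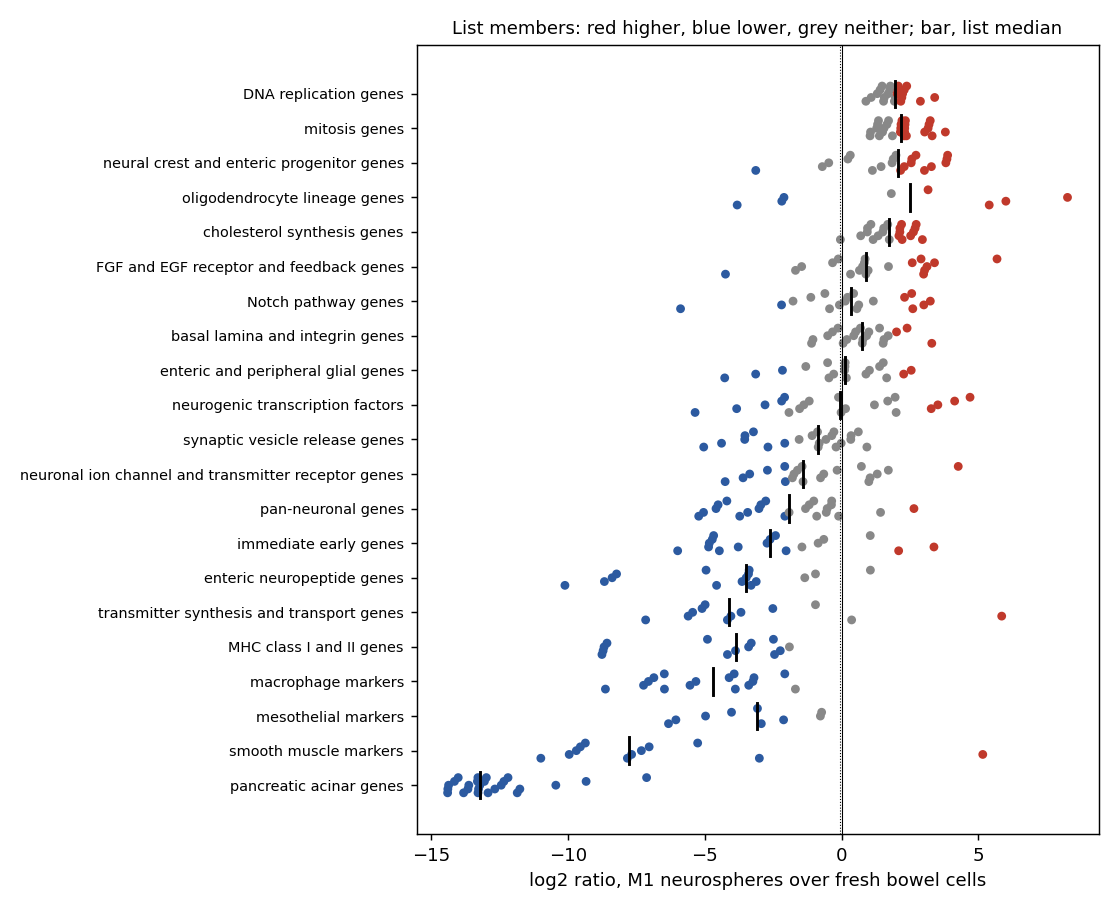
Log2 ratio of M1 over fresh cells for each measured member of 21 lists (red higher, blue lower, grey neither), with the list median as a bar and the median of all measured genes (-0.07) as a dotted line. The division, progenitor and cholesterol lists have medians from 1.74 to 2.171, the neuropeptide and transmitter lists -3.49 and -4.11, and the pancreatic list -13.22.

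The 15 genes with the highest log2 ratios among those called and at 10 CPM or more in M1 were led by 4 with no reads in the fresh library. These were Lrtm1 at 19.2 CPM (at least 268-fold higher), Pth2r, a parathyroid hormone family receptor, at 16.5 CPM (at least 231-fold), Dcc, the netrin receptor of growing axons, at 15.4 CPM (at least 215-fold) and Tecta at 14.7 CPM (at least 206-fold). Dcc was at 0.634 CPM in the sorted spheroid cells, whereas Lrtm1 was at 26.8 CPM there. Olig1, Gpr17 and Etv4, given above, were also among the 15. The others were Slco4a1, an organic anion transporter, at 0.295 CPM and 80.5 CPM, the collagenase Mmp8, the ligand Wnt16, Lhfpl3, Ptprv, the channel family member Ano3, the metalloprotease Adam12 at 4.09 CPM and 311 CPM, and the myosin Myo16. Slco4a1 was at 121 CPM in tdTomato-negative spheroid cells, 9.11 CPM in the sorted spheroid cells and 1.82 CPM in M2. Ptprv, Ano3 and Etv4 were also higher in tdTomato-negative cells than in those 2, and the rest of the 15 were not. All 15 lowest genes were digestive enzymes or other proteins secreted by the pancreas: Cela2a, Zg16, Cpa1, Reg1, Ctrb1, Rnase1, Pnliprp1, Amy2b, Cel, Try4, Prss2, Gp2, Cela3b, Amy2a4 and Reg2. Reads of the trypsin and amylase copies among them may be shared between copies.

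By share of reads, the 10 leading genes of M1 were Actb, Malat1, Sparc, Lars2, Timp2, Fth1, CYTB, Nedd4, Tnc and Scd2. Lars2, a mitochondrial leucine tRNA ligase, was at 190 CPM in fresh cells and 2534 CPM in M1. In fresh cells the 10 were Cela2a, Actb, Cela1, Myl9, Prss2, Acta2, Cel, Apoe, Try4 and Actg2, of which 5 are pancreatic and 3 are smooth muscle genes. Myl9, a myosin light chain of muscle, was at 7868 CPM there and 36.2 CPM in M1. Actb, the cytoplasmic actin, was at 9226 CPM and 6153 CPM.

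Culture of adipose crest cells offers a comparison that shares no library with this one, although those neurospheres had 10 days in mixed spheroids and a further 10 days after sorting. Against fresh adipose crest cells, 843 of 14773 measured genes (5.71%) were higher and 3067 (20.8%) were lower. Over the 13997 genes measured in both tissues, 1355 were lower in both, which is 75.2% of the bowel calls and 53.5% of the adipose calls, where 18.1% of all these genes were lower in adipose. Genes higher in both numbered 187, or 22.1% of the bowel and 25.3% of the adipose calls. Of all these genes 5.29% were higher in adipose. For the shares of the adipose calls the reference is the bowel calls, 846 higher and 1801 lower of the 13997. Immediate early genes were lower in 11 of 17 in bowel and 12 of 17 in adipose, and MHC genes in 12 and 13 of 13. Mitosis genes were higher in 16 of 27 in bowel and 0 of 27 in adipose, where their median log2 ratio was 0.67, and fresh adipose Mki67 was at 24.4 CPM and cultured at 43.1 CPM. Cholesterol genes were higher in 10 of 21 in bowel and 0 of 20 in adipose, and Nes was higher in both, with log2 ratios of 3.03 and 5.68. None of these differences between tissues was tested, since each group is 1 library.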

How the data were processed

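The deposited table gives CPM of each gene in 7 libraries, made by the authors from full-length cDNA (SMART-Seq v4, Nextera XT). Per the submitters' processing notes, bcl2fastq 2.17, HISAT, featureCounts and mm10 were used; strand use and other settings were not stated. All values of each library were whole multiples, within 0.05 reads, of what 1 read is worth, so read counts were recovered (51885106 to 65301500 a library). Without replicates no test, standard error or p-value was computed.

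TMM factors over 7 libraries came from edgeR 4.0.16 (16461 genes). Log2 ratios used a prior count of 2, and intervals are 95% exact conditional binomial ones; a gene with 0 reads is given as a bound from 3 reads. Reads carry no molecular identifiers, so intervals and floors cover counting error only. Tested on simulated data for this comparison (14946 measured genes), the rule called 50 of 50 genes raised and 50 of 50 lowered 8-fold. It called 0 of 100 changed 3-fold and 0 of 14746 unchanged. The simulated reads came from the mean profile of the 2 libraries with counting error alone, and were scaled by known totals. Scaling error and spread between libraries were not simulated, so these counts cannot say how many real calls are false.

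Genes were matched by Entrez ID to RefSeq on GRCm38.p6 (25275 of 27179). The text names the 15 highest and 15 lowest log2 ratios among called genes at 10 CPM or more in the higher library, the 10 genes with most reads in each library, and members of 47 lists. The comparison, members and lists were chosen with earlier results of these data known. Alternatives were other scalings (DESeq2 1.42.0 size factors among them), filters, priors and fold rules. Promoter motifs were searched in Python 3.11.15 in 250 bases before the first listed start, and the promoters printed were chosen after matches were seen. A few list members are counted in their lists but not named or plotted by name here.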

Additional observations from a re-analysis of the deposited data

Results flagged for a closer look

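Some genes differed in opposite directions between cultured and fresh crest cells of bowel and of adipose tissue; with 1 library per group these differences were not tested. Of 846 genes higher in bowel M1 neurospheres and measured in both tissues, 85 were lower in adipose neurospheres, each against its own fresh cells. Of 1801 such genes lower in bowel, 67 were higher in adipose. Over all 13997 genes measured in both tissues, 18.1% were lower and 5.29% were higher in adipose. Both opposite groups thus made up a smaller share of the bowel calls than of all these genes. Among list members 10 were higher in bowel and lower in adipose. Their bowel log2 ratios were 6.002 for Gpr17, 3.85 for the crest factor Msx1, 3.52 for Insm1, 3.27 for Sox11, 3.06 for Ugt8a, 2.996 for the EGF receptor ligand Areg, 2.73 for Pllp, 2.44 for the acute phase gene Serpina3n, 2.27 for Gjc3 and 2.16 for Sox8. Another 9 were of the second kind. Their bowel log2 ratios were -2.04 for the BMP antagonist Grem1 (in neither group by library totals), -2.51 for the choline transporter Slc5a7, -3.22 for Sv2b, -4.12 for Smad6, -4.48 for the Wnt inhibitor Notum, -4.88 for Rspo1, -5.13 for Nog, -5.44 for Gad2 and -7.16 for Th. In M1 both Gad2 and Th had 0 reads, so their log2 ratios rest on the prior count. As bounds they were at least 31.3-fold and 105-fold lower, and their fresh bowel levels were 1.32 CPM and 4.403 CPM.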

How the results depend on the processing

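No paired analysis was possible because each group has 1 library and the labels give no replicate numbers, and for the same reason no library could be left out. Against 1015 genes higher and 2521 lower, scaling by library totals gave 1711 higher, the 2-fold rule (interval beyond no difference) 3031 higher and 4072 lower, and the 8-fold rule 345 higher. Totals without the pancreatic list gave 1426 higher, and all other settings kept both counts within 1.5 times. Some list medians changed sign. The neurogenic transcription factor median of -0.07 was 0.39 by library totals, 0.00955 by TMM over the 2 libraries, 0.25 by totals without the pancreatic list and 0.063 with a 5 CPM filter. The myelin median was 0.42, 0.038 and 0.28 and the cell cycle brake median 0.41, 0.028 and 0.27 under the first 3 of these. The melanocyte median of -0.38 (3 measured genes) was 0.073 by library totals and 1.23 with no filter. TMM scaling takes 0.46 off the log2 ratio of plain CPM, and each of these medians was smaller in size than that shift. The filter settings changed which genes entered a median.

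Depth was 51885106 reads or more per library, so counting error is small for genes above 1 CPM. With 1 library per group the spread between animals or cultures is unknown, and culture, sort purity and library preparation cannot be told apart.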

Other observations

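Among signalling and patterning genes not described above more were lower than higher in M1 neurospheres, as over all measured genes (16.3% lower, 6.58% higher). Of 18 measured Wnt pathway genes 10 were lower and 2 higher, with a median log2 ratio of -2.84. The lower ones were led by secreted antagonists and agonists: Sfrp5 was at 124 CPM in fresh cells and 0.0385 CPM in M1, Dkk3 at 348 CPM and 24.6 CPM, and Rspo1 at 134 CPM and 6.23 CPM. The higher ones were Lef1, a nuclear effector, at 0.364 CPM and 16.1 CPM, and the receptor Fzd1 at 33.0 CPM and 298 CPM, while Axin2, a common readout of the pathway, was at 1.02 CPM and 2.00 CPM. Of 11 retinoic acid genes 5 were lower (3 by library totals), among them the synthesis enzyme Aldh1a1 at 217 CPM and 6.59 CPM and the receptor Rarb at 59.3 CPM and 9.17 CPM. Of 18 BMP and TGF-beta genes 6 were lower and 1, Tgfb1, was higher, at 8.10 CPM and 50.2 CPM. Many secreted factors of these lists were also present in tdTomato-negative spheroid cells, for instance Dkk3 at 715 CPM and Rspo1 at 61.0 CPM, and the part of other cells in the fresh levels was not tested.

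Hox genes record position along the body. Of 13 measured genes of groups 1 to 5, 1 was higher and 2 lower, near the 6.58% and 16.3% of all measured genes. Hoxd3 was at 5.48 CPM in fresh cells and 46.2 CPM in M1, while Hoxb5 was at 71.5 CPM and 23.4 CPM. Neither of the 2 lower calls held by library totals or by totals without the pancreatic genes, and TMM over the 2 libraries kept 1, without Hoxb5. Of 8 measured genes of groups 6 to 13, 4 were lower, among them Hoxc8 at 25.5 CPM and 2.56 CPM. All 12 measured mitochondrially encoded genes had ratios below 0, 5 of them called lower, with a median log2 ratio of -1.86. By library totals, and by totals without the pancreatic genes, 0 of the 12 were called lower, and the medians were -1.40 and -1.54. Of 16 cell cycle brake genes 2 were higher, 3 were lower and 9 lay within 2-fold, with a median log2 ratio of -0.05. Over all measured genes 6.58% were higher and 16.3% were lower. The higher brake genes were Cdkn2b, at 1.56 CPM in fresh cells and 38.3 CPM in M1, and Cdkn2a. Cdkn2a had no reads in fresh cells and 1.93 CPM in M1, at least 27.0-fold higher. The cystine transporter Slc7a11 was at 0.589 CPM and 30.1 CPM, and the large amino acid transporter Slc7a5 at 12.4 CPM and 239 CPM.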
